A study of Homo sapiens with 4 samples.

Results

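The Hippo pathway holds the transcriptional coactivators YAP1 and WWTR1 (also called TAZ) in check, and 10 of its effectors, regulators and target genes were followed here in sorted Huh7 cells. The genes are YAP1, WWTR1, TEAD1, LATS2, CCN1, CCN2, ANKRD1, AMOTL2, AJUBA and AXL. They were taken by gene symbol, as every probe set whose platform annotation named exactly 1 gene and that gene, under its current or older symbol, was on this list. This gave 24 of the 54675 probe sets and 10 of the 19775 named genes on the array. The list was drawn up with earlier results of these data known.

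Huh7 is an established human hepatocellular carcinoma (HCC) line. Its cells were divided by flow cytometry into CD133+ and CD133- populations, CD133 being the membrane protein encoded by PROM1, and total RNA of each was hybridized to 1 array. Both populations come from the same line, and no treatment, genotype or culture condition that separates them is given in the sources used here. Each array was deposited with RMA values (log2, from quantile-normalized probes) and with MAS5 signals (a linear scale), so these are not replicates but summaries of the same hybridizations. With 1 array per population no difference below has a replicate check and none has a test. All differences are CD133+ minus CD133- on the log2 scale, by RMA unless MAS5 is named.

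In the Hippo cascade the STK3 and STK4 kinases activate LATS1 and LATS2, which phosphorylate YAP1 and WWTR1 and keep them in the cytoplasm. Unphosphorylated YAP1 and WWTR1 enter the nucleus and bind TEAD transcription factors, since they have no DNA-binding domain of their own. CCN1, CCN2, ANKRD1, AMOTL2, AXL and LATS2 are widely used as readouts of this complex, and AMOTL2 and LATS2 also act back on YAP1 as inhibitors. In liver the pathway limits organ size, and YAP1 is highest in bile duct cells.

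TEAD factors recognise the letters GGAATG, read as CATTCC on the opposite strand, and a search for these letters shows which of the genes carry them next to a start site. RefSeq promoter windows (GRCh38.p14, 250 bases before to 50 after a start) were given for 8 of the 10 genes, in 12 windows. The letters stood in 7 of these 12 windows, and in 14.0% of all 35116 windows. By gene, 7 of the 8 had them in at least 1 window, against 16.7% of the 27305 genes with a window. Several of these genes are used as readouts of the TEAD complex, so this share is not independent of the choice of genes. The AP-1 motif TGAGTCA, read as TGACTCA on the opposite strand, was in 0 of the 12 windows and in 4.95% of all windows. At that share 12 windows are too few for the 0 to be read as a lack. These are letter matches in short windows and not measured binding sites.

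The 250 bases before the start are shown for CCN2, the classical TEAD target, and for ANKRD1, AMOTL2 and AJUBA, the genes with the largest differences between the arrays. Capitals mark GGAATG or CATTCC. The CCN2 stretch is chr6:131951373-131951622, the ANKRD1 stretch chr10:90921088-90921337, the AMOTL2 stretch chr3:134374448-134374697 and the AJUBA stretch chr14:22976843-22977092, all on the minus strand.
CCN2: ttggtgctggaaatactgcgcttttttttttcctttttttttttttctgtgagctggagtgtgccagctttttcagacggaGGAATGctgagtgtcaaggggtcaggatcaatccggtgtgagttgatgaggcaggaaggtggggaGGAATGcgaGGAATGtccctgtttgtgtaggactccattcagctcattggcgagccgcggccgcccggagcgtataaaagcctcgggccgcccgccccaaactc
ANKRD1: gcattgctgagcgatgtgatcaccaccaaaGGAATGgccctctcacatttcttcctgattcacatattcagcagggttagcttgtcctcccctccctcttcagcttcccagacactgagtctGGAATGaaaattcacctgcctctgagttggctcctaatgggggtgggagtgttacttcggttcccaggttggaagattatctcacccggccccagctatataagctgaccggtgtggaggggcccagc
AMOTL2: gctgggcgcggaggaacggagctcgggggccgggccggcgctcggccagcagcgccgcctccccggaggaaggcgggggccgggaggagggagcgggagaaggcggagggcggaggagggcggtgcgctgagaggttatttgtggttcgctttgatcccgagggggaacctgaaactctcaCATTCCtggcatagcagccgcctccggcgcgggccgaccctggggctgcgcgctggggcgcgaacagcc
AJUBA: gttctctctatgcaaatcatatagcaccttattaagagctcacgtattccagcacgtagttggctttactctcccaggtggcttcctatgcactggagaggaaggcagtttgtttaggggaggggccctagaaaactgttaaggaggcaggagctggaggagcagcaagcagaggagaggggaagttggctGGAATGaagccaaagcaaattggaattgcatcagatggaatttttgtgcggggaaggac

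CCN2 held the letters 3 times, starting 169, 104 and 95 bases before the start, and ANKRD1 held them at 220 and 128 bases. AMOTL2 had a single match at 69 bases and AJUBA one at 59 bases, each in 1 of 2 windows given for the gene, and the window of the other start held none. YAP1 had a match 162 bases before its start, and AXL one at 212 bases in 1 of its 2 windows. The LATS2 match began 9 bases after the start, and neither WWTR1 window held the letters.

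As a group the 10 genes were modestly higher in CD133+ cells. Of the 24 probe sets 22 had the higher RMA value on the CD133+ array and 2, both dim, had the same value on both arrays, whereas 46.6% of all named probe sets were higher there. A probe set was counted as above background when its brighter RMA value exceeded 4.86, a floor that divides all probe sets of the array equally and that says nothing on detection in the scanner's sense. All 16 probe sets above this floor were higher in CD133+ cells, against 44.8% of the named probe sets above it. These 16 belong to 8 genes on the same arrays and are not separate observations. As the genes were chosen with earlier results of these data known, this comparison and those below are not independent of the choice. In a bulk sample a change in the share of cells that express a gene and a change in RNA per cell cannot be told apart.

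**Figure D1:**
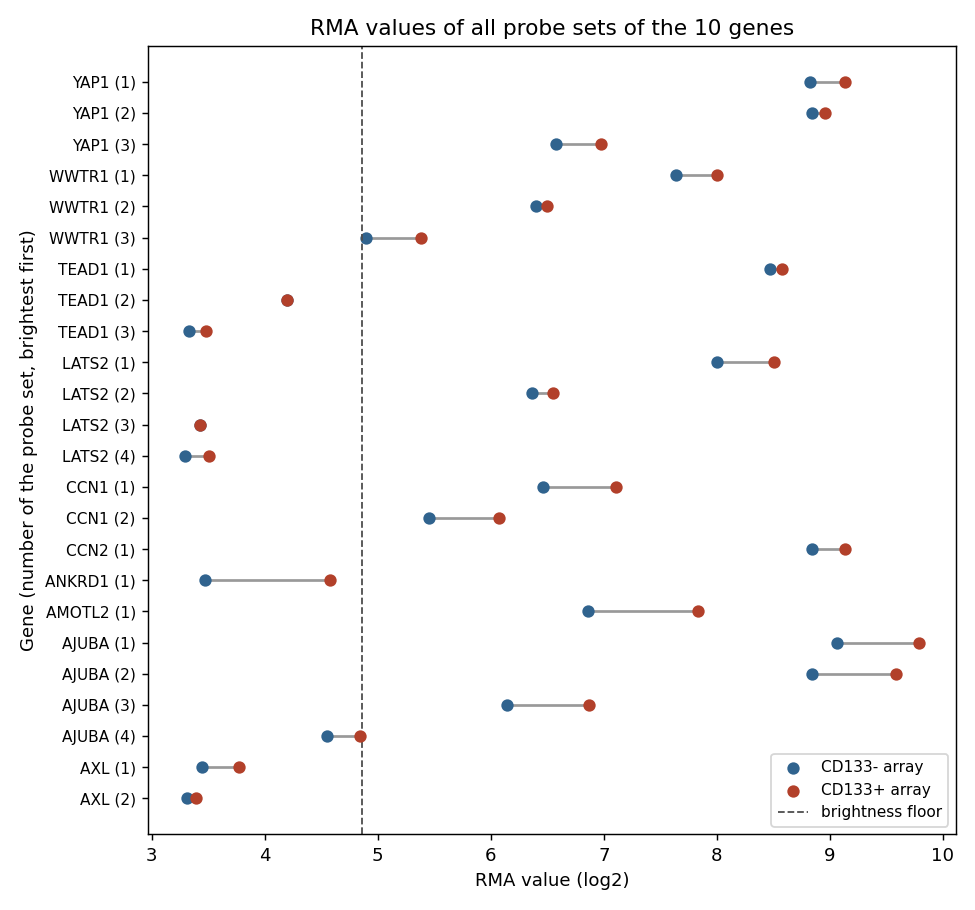
RMA values (log2, horizontal axis) of all 24 probe sets of the 10 genes, with blue points for the CD133- array, red points for the CD133+ array, a grey line joining them and the brightness floor of 4.86 dashed. Red lies to the right of blue for 22 probe sets, the points coincide for 1 TEAD1 and 1 LATS2 probe set, and the longest lines are those of ANKRD1 and AMOTL2.

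The differences were small beside a 2-fold line. The probe set with the highest RMA value averaged over both arrays stood for each gene, and 8 of the 10 genes lay above the floor, all 8 of them on both arrays. Of these 8, 0 reached 2-fold in either direction, where 1.65% of the 12899 detected genes were at least 2-fold higher and 0.116% at least 2-fold lower. At 1.5-fold, 3 of the 8 were higher (AMOTL2, AJUBA and CCN1), against 3.67% of detected genes. All 8 had a difference above 0, as did 45.6% of detected genes. The median over all 10 was 0.43, while the median of all named genes was 0.00.

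By MAS5, 9 of the 10 genes had the higher signal in CD133+ cells, as did 50.7% of all named genes. With a MAS5 floor of 91.8 set in the same way, 9 genes were detected. In the signals as measured 2 of them, AMOTL2 and ANKRD1, were past 2-fold, against 4.47% of all genes detected by MAS5, but ANKRD1 was above the floor in CD133+ cells alone and is bounded at 1.62-fold. This leaves 1, AMOTL2, at 2-fold on signals above the floor on both arrays. The median difference of the 10 genes was 0.45 by MAS5. Both algorithms read the same hybridizations, so this is not a second measurement. The available technical yardstick is how far probe sets of 1 gene differ from each other, with an SD of 0.17 per probe set over 16955 pairs above the floor. It holds no variation from repeated sorts or arrays.

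**Figure D2:**
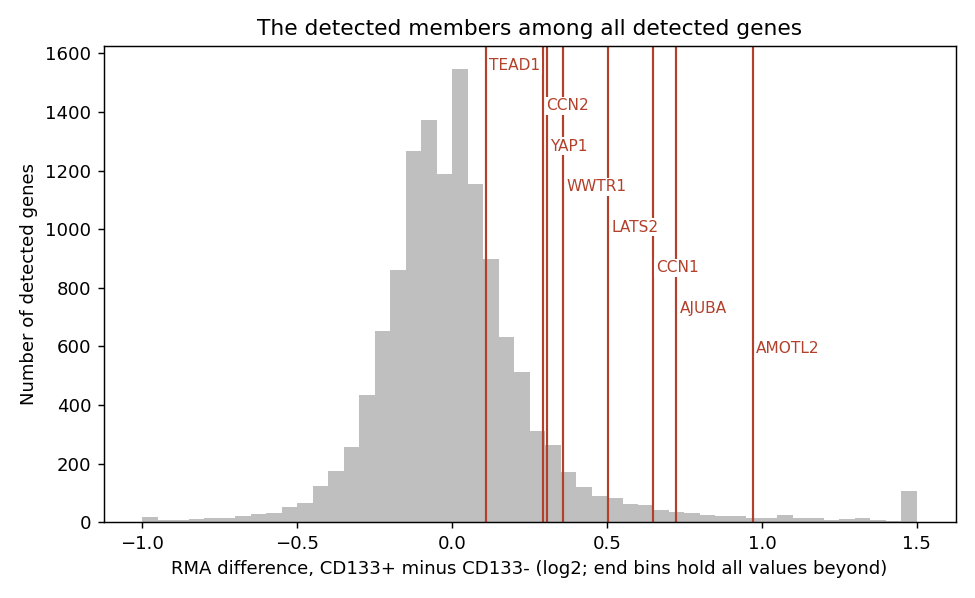
Histogram of the RMA difference CD133+ minus CD133- (log2, horizontal axis) over all 12899 detected genes (number of genes, vertical axis), with a red line for each of the 8 detected members. The lines run from TEAD1 at 0.11, inside the bulk of the genes, to AMOTL2 at 0.97 in the right tail.

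YAP1, the coactivator itself, was slightly higher in CD133+ cells. Its brightest probe set (224895_at) read 9.13 in CD133+ and 8.83 in CD133- cells, a difference of 0.31 or 1.24-fold, and MAS5 gave 2489 and 1899. The probe set 224894_at, nearly as bright, read 8.96 and 8.84, a difference of only 0.12. The dimmer 213342_at read 6.98 and 6.58, a difference of 0.40. All YAP1 probe sets lay well above the floor and pointed the same way, but which of them represents the gene moves its value from 0.31 to 0.12. A difference of 0.31 or more was found for 9.43% of detected genes.

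WWTR1, the paralogue of YAP1, gave a similar picture. Its brightest probe set (202133_at) read 8.00 in CD133+ and 7.64 in CD133- cells, a difference of 0.36 or 1.28-fold. The other probe sets differed by 0.10 (202132_at) and 0.48 (202134_s_at, a kind that can match several transcripts). MAS5 placed all 3 on the same side, with signals of 1302 and 939 for the brightest. Neither coactivator therefore reached 1.5-fold on any probe set by RMA.

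TEAD1, a DNA-binding partner of both coactivators, was the least different of the detected genes. Its bright probe set (224955_at) read 8.58 and 8.47, a difference of 0.11, and the MAS5 signals of 1674 and 1683 differed by -0.01. The remaining TEAD1 probe sets were below the floor, 1 with an RMA value of 4.20 on both arrays and 1 at 3.48 and 3.33. The direction of TEAD1 thus turned with the algorithm, and its difference was below the spread between probe sets.

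LATS2, the kinase that phosphorylates YAP1 and is itself induced by it, was higher in CD133+ cells on its bright probe sets. The brightest (227013_at) read 8.51 and 8.00, a difference of 0.50 or 1.42-fold, with MAS5 signals of 1451 and 1071. The second (223380_s_at) read 6.55 and 6.36, a difference of 0.19. The dim pair differed by 0.21 and 0.00 by RMA and by -0.43 and -2.07 by MAS5, at MAS5 signals of no more than 57.4. Averaged over its 4 probe sets the LATS2 difference was 0.23.

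AMOTL2, an angiomotin-family scaffold that binds YAP1 at cell junctions and is a target of it, had the largest difference of the detected members. It is measured by a single probe set (203002_at), which read 7.83 in CD133+ and 6.86 in CD133- cells. This is a difference of 0.97, or 1.96-fold, just short of the 2-fold line, and MAS5 put it just past the line at 2.04-fold with signals of 1227 and 601. Only 1.71% of detected genes differed by as much or more in this direction. No other AMOTL2 probe set was available to set beside it.

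AJUBA, a LIM-domain adaptor that restrains LATS kinases, differed by nearly the same amount on all its bright probe sets. The 3 above the floor differed by 0.72 (225806_at), 0.74 (1553764_a_at) and 0.73 (225807_at), although their RMA values ranged from 6.87 to 9.79 in CD133+ and from 6.14 to 9.06 in CD133- cells. The brightest of them was 1.65-fold higher by RMA and 1.63-fold by MAS5, where the signals were 4050 and 2492. The fourth, just under the floor at 4.85 and 4.55, differed by 0.29. Probe sets of a gene share the RNA and the array, so they are not replicates. A difference as large as that of AJUBA was found for 2.62% of detected genes.

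CCN1 and CCN2 encode secreted matricellular proteins, formerly CYR61 and CTGF, that act on integrins and matrix. CCN1 read 7.11 in CD133+ and 6.46 in CD133- cells on its brighter probe set (201289_at), a difference of 0.65 or 1.57-fold, and 6.07 and 5.46 on the other (210764_s_at), a difference of 0.61. By MAS5 the same probe sets differed by 0.40 and 0.76, so the sizes were less even there. CCN2, on its single probe set (209101_at), read 9.13 and 8.84, a difference of 0.29 or 1.23-fold, with MAS5 signals of 3153 and 2436. CCN1 thus passed 1.5-fold by RMA, though not by MAS5 on its brighter probe set, and CCN2 did not by either. CCN2, with 3 TEAD letter matches in the window shown above, was among the less different members, while ANKRD1, with 2, had the largest difference as measured. A link between letter matches and differences was not tested.

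Both CCN genes also belong to those that respond quickly to serum and to handling, and 8 immediate early genes were read beside them. Of these 5 were higher and 3 lower in CD133+ cells, where 45.6% of detected genes were higher. The median of the 8 was 0.12, with summed MAS5 signals of 11601 in CD133+ and 11867 in CD133- cells. The highest were DUSP1 at 0.40, FOS at 0.39 and ATF3 at 0.37. EGR1 was lowest at -0.89 and was lower on all 3 of its probe sets, followed by FOSB at -0.35 and IER2 at -0.19. FOSB was below the floor in CD133+ cells, so its value is a bound of at least 1.03-fold lower and has no firm rank. The part of handling in the CCN1 and CCN2 differences was not tested.

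ANKRD1, a cardiac ankyrin-repeat protein and a sensitive YAP readout, had the largest difference as measured, but at low brightness. Its single probe set (206029_at) read 4.57 in CD133+ and 3.48 in CD133- cells, both below the floor, so the difference of 1.10 is one of the values as measured and no fold is given for RMA. By MAS5 the signals were 149 and 28.6, and only the first exceeded the MAS5 floor, which makes ANKRD1 at least 1.62-fold higher on that scale. AXL, a receptor tyrosine kinase and YAP target, was below both floors on both arrays. Its probe sets read 3.77 and 3.44 (202686_s_at) and 3.39 and 3.32 (202685_s_at), and by MAS5 they differed by 0.54 and -0.73. A difference in AXL was not measurable at this brightness.

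**Figure D3:**
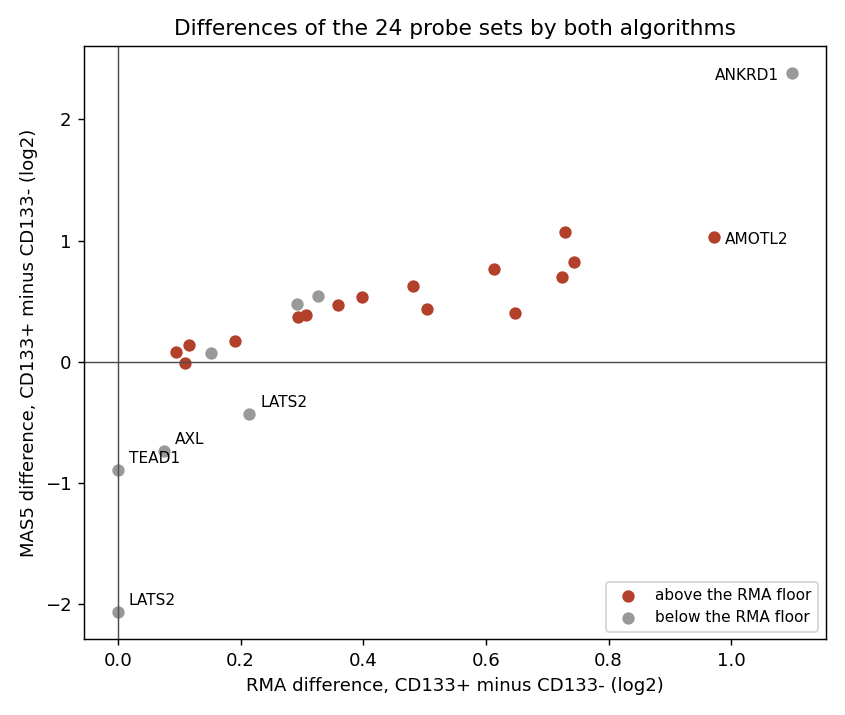
MAS5 difference (log2, vertical axis) against RMA difference (log2, horizontal axis), CD133+ minus CD133-, for the 24 probe sets, in red where the brighter RMA value was above the floor and in grey where it was below. Of the 16 red points 15 lie above 0 on both axes, the other being TEAD1 at -0.01 by MAS5, and the 4 grey points below 0 by MAS5 are dim LATS2, TEAD1 and AXL probe sets.

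The other genes of the pathway were read from 5 lists. Upstream of YAP1, the kinases, adaptors and polarity proteins of the Hippo cascade showed no common direction. Of 30 genes 27 were detected, 10 of these higher, 16 lower and 1 equal in CD133+ cells. Of all detected genes 45.6% were higher. By RMA 0 of the 27 reached 1.5-fold, where 3.67% of detected genes were that much higher and 130 of 12899 that much lower. At these shares 27 genes are too few for the 0 to be read as a result. By MAS5 2 of 26 detected upstream genes, SAV1 and PATJ, were at least 1.5-fold higher, as were 1215 of 12251 detected genes. The median over all 30 upstream genes was -0.07 by RMA. LATS1, the paralogue of LATS2, was lowest at -0.37, with RMA values of 6.66 in CD133+ and 7.02 in CD133- cells. NF2, the tumour suppressor merlin that activates the cascade, differed by -0.32, but its probe sets above the floor ranged from -0.32 to 0.11. MAP4K4, a kinase parallel to STK3 and STK4, differed by -0.27 and in the same direction on all 4 of its probe sets above the floor. At the other end were TAOK3, a kinase of the TAO family, with 0.50, the adaptor WWC1 (KIBRA) with 0.50 and the polarity protein PATJ with 0.42. Both TAOK3 probe sets differed by about the same amount, 0.50 and 0.51, while WWC1 probe sets above the floor ranged from -0.01 to 0.53.

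The other TEAD factors and the VGLL cofactors, which compete with YAP1 for TEAD, differed little. Of 7 genes 4 were detected. TEAD4 was highest at 0.24, with 8.01 in CD133+ and 7.78 in CD133- cells, and its second probe set differed by 0.03. TEAD2 differed by 0.15, VGLL4 by 0.00 and TEAD3 by -0.13, and VGLL1, VGLL2 and VGLL3 were below the floor. The median over all 7 was 0.12.

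The remaining genes of a published list of YAP and TAZ targets were mixed. Of 16 genes, 15 were analysed and 12 were detected. Of the 12, 9 were higher in CD133+ cells, as were 45.6% of detected genes. Of these 12, 1 was at least 2-fold and 3 at least 1.5-fold higher, against 1.65% and 3.67% of detected genes, and 0 were lower by as much. MYOF (myoferlin), a membrane repair protein, read 6.23 in CD133+ and 4.73 in CD133- cells, at least 2.60-fold higher against the floor, which it passed in CD133+ cells alone. Its MAS5 signals of 316 and 119 were both above the MAS5 floor and differed by 1.41. IGFBP3, a carrier of insulin-like growth factors, differed by 0.76, and by 1.05 on its other probe set. PTPN14, a phosphatase that binds YAP1 and is also a negative regulator of it, read 7.25 and 6.57, a difference of 0.68. The lowest were NT5E (CD73) at -0.38, ASAP1 at -0.18 and ARHGEF17 at -0.10. NT5E probe sets did not share a direction and ranged from -0.38 to 0.35. The median over the 15 was 0.12, and 0.19 over those detected.

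Further genes known as YAP targets were mixed as well. Of 10, 8 were analysed and 6 were detected. In the RMA values as measured 3 of the 6 were past 2-fold, against 1.65% of detected genes. But 1 of these, THBS1, was above the RMA floor in CD133+ cells alone, which leaves 2, EDN1 and FSTL1, above it on both arrays. By MAS5 EDN1 and FSTL1 were above the MAS5 floor in CD133+ cells alone, and are bounded at 3.51-fold and 1.96-fold. THBS1 was above the MAS5 floor on both arrays, with signals of 267 and 105 and a difference of 1.34. THBS1, the matricellular thrombospondin, read 5.45 and 4.20, a difference of 1.26 as measured and at least 1.51-fold against the floor. EDN1, the vasoconstrictor endothelin, read 6.25 and 5.16, a difference of 1.09. Its other probe sets were above the floor on the CD133+ array alone. Of these 1 was higher by at least 2.73-fold and 1, at 4.98 and 4.68, by at least 1.09-fold. FSTL1, a secreted follistatin-like glycoprotein, read 6.12 and 5.06, a difference of 1.06, and its other probe sets were below the floor. MYC, BIRC5 (survivin) and TAGLN (transgelin) differed by -0.19, -0.02 and 0.09. The dimmer TAGLN probe sets read 5.05 and 4.50, at least 1.14-fold higher against the floor, and 4.67 and 3.17, both below it, so TAGLN probe sets differ in size. The median of 0.06 over all 8 moved to 0.48 when the probe set of highest MAS5 signal represented each gene, and to 0.57 over the 6 detected, so it describes this list poorly.

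Relatives of the members differed little by RMA where they were detected. AXL itself was not measurable, so the receptors and ligands of its family have no member difference to be set beside. Of 10 genes 5 were detected and 0 of these reached 1.5-fold by RMA, where 3.67% of detected genes were that much higher. At that share 5 genes are too few for the 0 to be read as a result. The median over all 10 was 0.07. Among receptors of the AXL family TYRO3 differed by 0.05 and MERTK by -0.22, and their ligands PROS1 (protein S) and GAS6 by 0.13 and 0.09. By MAS5 1 of 5 detected relatives, GAS6, was past 1.5-fold, as were 1215 of 12251 detected genes. Its difference there was 0.66, with signals of 324 in CD133+ and 205 in CD133- cells. CCN6 differed by -0.25, and CCN3, CCN4 and CCN5 were below the floor, as were ANKRD2 and ANKRD23. PROS1, read at 9.98 in CD133+ and 9.85 in CD133- cells, was thus above the floor in both populations, and AXL in neither.

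**Figure D4:**
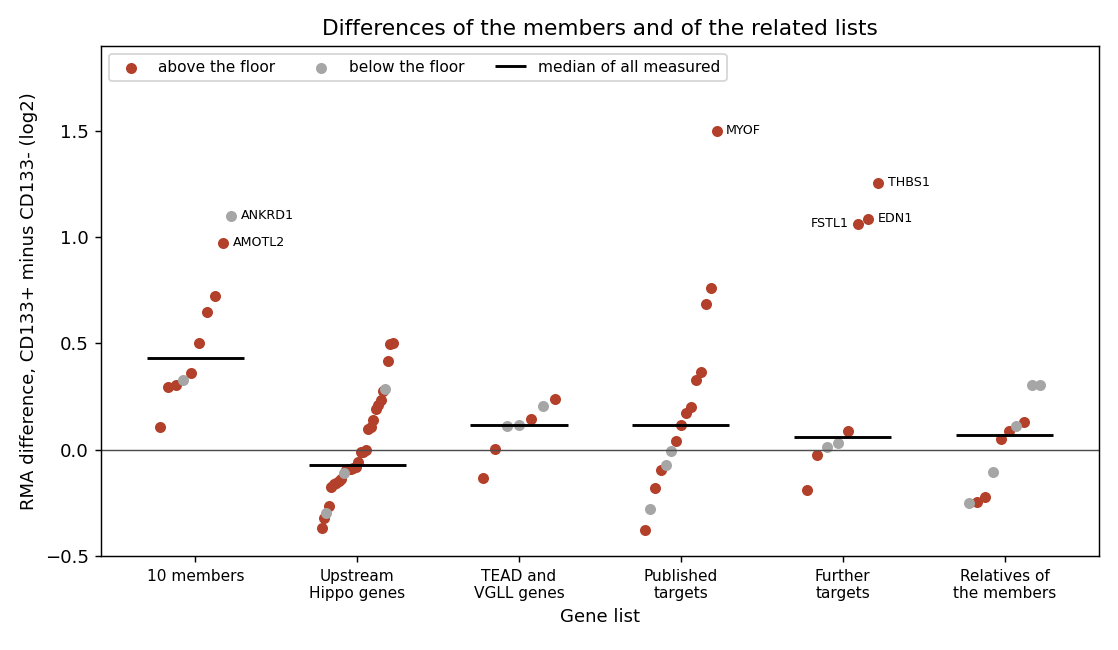
RMA difference CD133+ minus CD133- (log2, vertical axis) of every measured gene of the 10 members and of 5 related lists, in red where the gene was above the brightness floor and in grey where it was not, with a black bar at the median of all measured genes of the list. The median of the members is 0.43, the upstream genes lie on both sides of 0, and the targets MYOF, THBS1, EDN1 and FSTL1 stand above 1.

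The sort and the identity of the cells were read from the same arrays. PROM1 read 10.49 in CD133+ and 5.33 in CD133- cells, in the direction of the labels. All 8 hepatocyte markers, among them ALB and AFP, were detected on both arrays with differences from -0.16 for TF to 0.55 for TTR. Many YAP targets are also abundant in fibroblasts and endothelium. Of 8 fibroblast markers DCN, COL3A1, ACTA2 and THY1 were below the floor and COL1A1 and PDGFRB differed by 0.04 and -0.25. The COL1A1 value rests on a single probe set of a kind that can match several transcripts, and its other probe sets were below the floor. COL1A2 differed by 1.33, and LUM, above the floor on the CD133+ array alone, was higher by at least 2.33-fold. The summed MAS5 signal of these 8 was 2828 in CD133+ and 1461 in CD133- cells. Of 4 endothelial markers KDR and CDH5 were below the floor, PECAM1 differed by 0.23 and VWF by 0.02, and the sums were 337 and 331. PTPRC, the defining marker of blood cells, was below the floor, CD14 differed by -0.25, CD3E by -0.02 and HBB by 0.00, and the sums over 4 blood markers were 368 and 406. The part of these genes in the target differences was not tested.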

How the data were processed

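Gene expression was measured on 1 array each of CD133+ and CD133- Huh7 cells, and 4 columns were deposited. Per the labels, 2 hold MAS5 signal intensity per probe set, which the authors made on a linear scale; the trimmed mean (2% off each end) was 500.1 on both arrays, so they were scaled alike. The other 2 hold RMA values that the authors deposited on a log2 scale. The submitters' processing notes name MAS5, RMA and GCOS, with no version. Scaling and quantile normalization hide any global shift between the populations.

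Probe sets were named through the platform annotation: 41097 had 1 symbol, 1801 several and 11777 none. Of those with 1 symbol, 41043 were matched by Entrez number to a GRCh38.p14 gene and took its symbol, whether or not it had changed. The probe set with the highest RMA value averaged over both arrays stood for its gene. Tables were computed with Python 3.11.15, pandas 2.3.3 and numpy 2.4.6, and the counting was tested on simulated data. Members and lists were chosen with earlier results of these data known. The text names every member, PROM1, and of each pathway list the detected genes of at least 2-fold and the 3 highest and 3 lowest; other genes are named to complete a description. NUAK2 and AREG were not analysed here, and 1 other listed gene is not reported here. Alternatives covered the algorithm, the probe set, shared probe sets, the floor, centring and the fold. Precision is limited by the number of arrays.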

Additional observations from a re-analysis of the deposited data

How the results depend on the processing

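The median difference of the members stayed between 0.30 (mean over probe sets) and 0.50 (without probe sets that can match several transcripts) in the alternatives that were run. The 0.50 is a median over 9 genes, since AXL has only probe sets of that kind and drops out. The settings with a different floor were over 8 genes. The count of members at least 2-fold higher was 0, and became 2 with MAS5 values (AMOTL2, and ANKRD1 as measured, though bounded at 1.62-fold against the MAS5 floor), 1 (ANKRD1, below the RMA floor on both arrays) with no floor and 3 at 1.5-fold; in the other alternatives it stayed at 0. The count at least 2-fold lower was 0 in each. Of 65 alternative values for single members, 60 moved by less than the probe set spread of 0.17 and 5 by more. The 5 were ANKRD1, AXL and CCN1 by MAS5, LATS2 by the mean over probe sets and YAP1 by the probe set of highest MAS5 signal. Many of the 60 could not move, so their number is no measure of robustness. A floor leaves the value of a single gene as it is, and centring shifts all genes alike. AMOTL2, CCN2 and ANKRD1 have only 1 probe set each, so the choice of probe set cannot change them. Only TEAD1 by MAS5 was below 0. The median of the further targets moved from 0.06 to 0.33 with the mean over probe sets, 0.48 with the probe set of highest MAS5 signal and 0.57 with a floor on the mean of both arrays, and was -0.11 over the 2 genes above the 75th percentile of brightness; the floors act by leaving fewer genes. Under the first 3 of these settings it exceeded the median of the members, which was 0.30, 0.43 and 0.43. The medians of the upstream, TEAD and VGLL, published target and related lists moved by less than 0.17. ANKRD1 and AXL are limited by signal over background, and no alternative replaces a repeated sort.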

Other observations

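By RMA, 2891 named probe sets, 7.03% of them, had exactly the same value on both arrays, and 2 of the 24 probe sets of these genes (1 of TEAD1 and 1 of LATS2) were among them. Their MAS5 signals were not equal: the TEAD1 probe set read 53.7 in CD133+ and 99.8 in CD133- cells, and the LATS2 probe set 9.00 and 37.7. An RMA difference of 0.00 on a dim probe set is therefore not the same statement by both algorithms.

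LATS1 and LATS2, the paralogous kinases that phosphorylate YAP1, lay on opposite sides of 0 by both algorithms on their brightest probe sets. LATS2 differed by 0.50 by RMA and 0.44 by MAS5, and LATS1 by -0.37 and -0.56. The other LATS1 probe sets were below the floor and differed by 0.13, 0.05 and 0.04, so the LATS1 value rests on a single probe set. Both values come from 1 array per population, and whether the kinases differ in direction was not tested.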
